A study of Mus musculus with 12 samples.

Results

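MicroRNA genes were examined in the adrenal gland of KK/HIJ and C57Bl/6J mice on whole-transcript arrays. A gene was a member when a probeset (a group of array probes summarised as 1 value) carried a single gene symbol that named a microRNA, and the brightest probeset stood for a gene with several. This gave 175 microRNA genes among the 6986 genes with a symbol of their own. Of these, 70 microRNA genes reached a group mean of at least 4 on the log2 scale in at least 1 group and were tested, against 4414 of all genes (40% and 63.2%). The other 105 lay below that level in every group, with 12-array means of 2.06 to 3.72. The highest group mean was 4.11 for Mir3961, just inside the level, and 3.93 for Mir677, just outside it. Nearly all named genes of the deposited table lie on chromosomes 1 and 10 to 15, and the members lie on these chromosomes alone. MicroRNA genes of other chromosomes were not analysed here.

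The study compared strains and sexes in a model of impaired glucose homeostasis. The 4 groups were male KK/HIJ (KK-M), female KK/HIJ (KK-F), male C57Bl/6J (C57-M) and female C57Bl/6J (C57-F) mice, aged 21 weeks. Both strains and sexes ate standard chow, had repeated insulin tolerance tests and took behavioral tests, and the labels name no engineered allele. The RNA of the mice of a group was pooled and each pool was run on 3 arrays, so that the p-values below cover the spread between arrays of 1 pool and not the spread between mice.

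A microRNA is cut from a long primary transcript as a folded hairpin by Drosha in the nucleus, and then from the hairpin by Dicer in the cytoplasm. Bases 2 to 8 of the mature strand, the seed, pair with messenger RNAs, which are then repressed. Whole-transcript arrays of this kind read the RNA that overlaps the microRNA gene, so that primary transcript, hairpin and mature strand are not separated in the values. A large imprinted cluster of microRNA genes lies on chromosome 12 between Dlk1, a paternally expressed inhibitor of adipocyte differentiation, and Dio3, a thyroid hormone deiodinase. There the maternal chromosome is transcribed into the non-coding RNAs Meg3, Rian and Mirg, which carry microRNAs and small nucleolar RNAs, and into an antisense transcript of the retrotransposon-like gene Rtl1.

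Of the 175 microRNA genes, 43 lay between Dlk1 and Dio3, of 61 microRNA genes that RefSeq (GRCm38.p6) places there, and all 41 of them with a strand in the sequence table were on the plus strand. A mature sequence was found for 159 of the 175 genes, and for 32 of the 35 that differed in a pairwise contrast or in the interaction defined below. Sequences are from RefSeq (GRCm38.p6), 5′ to 3′, with the seed in capitals. The first set shows the region's microRNAs whose opening 8 bases hold the letters GGUU, for 5 genes that were higher in KK or in male pools and for Mir453, which was much lower in KK pools.
miR-154-5p: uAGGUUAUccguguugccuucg
miR-409-5p: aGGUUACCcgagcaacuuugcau
miR-487b-5p: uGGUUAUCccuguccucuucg
miR-377-5p: aGAGGUUGcccuuggugaauuc
miR-380-5p: aUGGUUGAccauagaacaugcg
miR-453: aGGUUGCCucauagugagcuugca
Of the 80 mature microRNAs of the region's measured genes, 12 (15%) held GGUU within bases 1 to 8. Of the 1599 other mature microRNAs in the table, 33 (2.06%) did. The 1599 were not limited to genes outside the region, and GGUU was the only short motif counted in mature microRNAs. Those of the 12 not shown are miR-299a-5p, miR-1197-5p, miR-758-5p, miR-329-5p, miR-494-5p and miR-496a-5p. Their genes are not among the 35 that differed. The remaining region genes that the results turn on had other seeds, and none of the following set shared one with another member.
miR-341-3p: uCGGUCGAucggucggucggu
miR-1188-5p: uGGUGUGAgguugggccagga
miR-337-3p: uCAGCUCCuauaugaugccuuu
miR-493-3p: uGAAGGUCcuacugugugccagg
miR-541-5p: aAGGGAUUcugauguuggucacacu
miR-665-3p: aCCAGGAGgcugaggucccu
Outside the region, miR-212 and its neighbour miR-132 shared a seed, and the others shown each had a called strain or sex difference.
miR-212-3p: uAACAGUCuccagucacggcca
miR-132-3p: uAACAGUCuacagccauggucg
miR-218-5p: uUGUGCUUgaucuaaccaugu
miR-30c-5p: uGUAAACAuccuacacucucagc
miR-7a-5p: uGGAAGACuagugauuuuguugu
miR-1931: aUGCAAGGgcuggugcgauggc
miR-1938: cGGUGGGAcuuguaguucgguc
Among the 272 mature microRNAs of the members, 18 seeds were shared by at least 2. Those of miR-453 and miR-496a-5p were the same, although Mir453 was called lower in KK pools and Mir496a was not called in a strain contrast.

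The signal of microRNA genes was low. The median 12-array mean was 3.19 over all 175, against 4.60 over all genes, and it was 4.68 in the Dlk1-Dio3 region and 2.96 elsewhere. The spread between arrays was also wider, with a median residual SD of 0.225 over tested microRNA genes and 0.145 over all tested genes. The 10 brightest were, in order, Mir5099, Mir449b, Mir341, Mir3058, Mir329, Mir673, Mir5135, Mir665, Mir15a and Mir196a-1. Neighbours in a cluster were not equally bright. Mir449b stood at 10.92 in KK-M, 11.32 in KK-F, 10.91 in C57-M and 11.32 in C57-F, whereas the group means of Mir449a and Mir449c, the other members of this family of multiciliated cells, lay between 2.89 and 3.21. Cdc20b, the gene that contains them, was also low, at 3.38 to 3.60.

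Differences were tested with limma on 3 arrays a group, and a gene was called a differentially expressed gene (DEG) at a fold change of at least 1.4 with a Benjamini-Hochberg adjusted p below 0.05. In KK-M v C57-M, 15 of the 70 tested microRNA genes were higher and 4 lower, against 7.05% higher and 13.4% lower over all 4414 genes. After quantile normalization these were 17 and 4, against 9.19% and 9.39%. In KK-F v C57-F, 13 were higher and 3 lower, against 9.56% and 9.06% of all genes. This split depended on the scaling of the arrays. It was 9 higher and 6 lower after quantile normalization, against 8.24% and 10.5% of all genes. After median centring it was 10 and 5, against 7.88% and 10.6%. In KK-M v KK-F, 16 were higher and 3 lower (7.27% and 11.6% of all genes). Here the split of all genes turned with the scaling, to 11.2% higher and 7.06% lower after quantile normalization and 10% and 7.97% after median centring, whereas the microRNA genes stood at 19 higher and 2 lower and at 17 and 3. In C57-M v C57-F, 7 were higher and 2 lower (4.33% and 2.74% of all genes). The strain by sex interaction, the strain difference in males minus that in females, was called for 8, of which 5 were positive and 3 negative (3.81% and 10.1% of all genes). After quantile normalization 6 were positive and 1 negative, against 6.61% and 5.82% of all genes, whose median interaction was 0.04 there and -0.08 as deposited, and after median centring 5 and 2, against 4.6% and 7.83%. Averaged over the sexes, 14 were higher and 4 lower in KK (6.84% and 8.63% of all genes). Averaged over the strains, 13 were higher and 2 lower in males (4.62% and 3.99% of all genes, or 6.04% and 3.24% after quantile normalization and 6.04% and 3.1% after median centring). A limma fit on the 4 pool means, with 1 residual degree of freedom, gave 6 calls for strain and 0 for sex, where 23 and 18 microRNA genes had an unadjusted p under 0.05.

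A tested gene may have passed the level only through the group in which it was high. All 4 group means reached 4 for 57 of the 70 genes, and these 57 held 9 of the 15 higher calls in KK-M v C57-M, 6 of 13 in KK-F v C57-F, 14 of 16 in KK-M v KK-F and 5 of 7 in C57-M v C57-F. In all, 35 microRNA genes were called in at least 1 pairwise contrast or the interaction (50%, against 40.2% of all genes tested), and 21 of them were in the Dlk1-Dio3 region. KK-M v C57-M and KK-M v KK-F share the KK-M arrays, and likewise for the other groups, so a high group enters 2 contrasts. In the region, the share of tested genes called higher in KK-M v KK-F was 43.8%, and among tested microRNA genes elsewhere it was 5.26%.

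**Figure D1:**
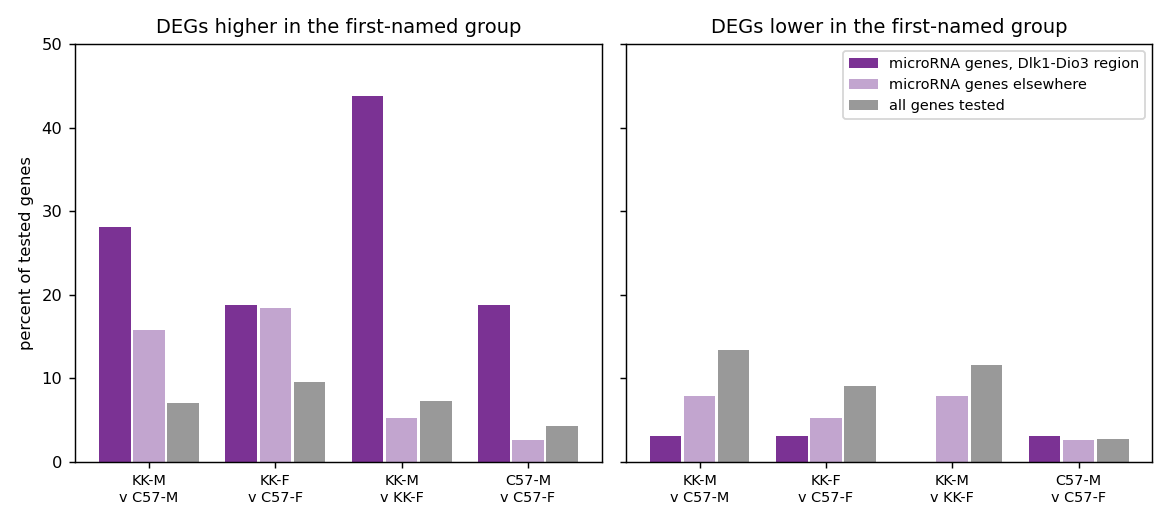
Percent of tested genes that were DEGs in each pairwise contrast, higher (left) or lower (right) in the first-named group, for 32 microRNA genes of the Dlk1-Dio3 region, 38 microRNA genes elsewhere and all 4414 genes tested. The region reached 43.8% higher in KK-M v KK-F, where all genes stood at 7.27%, and no tested gene of the region was lower there.

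Male pools carried more signal than female pools at many genes of the Dlk1-Dio3 region. In KK-M v KK-F, 14 of the 32 tested region genes were higher and none was lower, with a median log2 difference of 0.40, against -0.06 over all genes. The median over all genes depended on the scaling, and the pair was 0.55 and 0.06 after quantile normalization and 0.48 and 0.03 after median centring. In C57-M v C57-F, 6 were higher and 1 lower, with a median of 0.22 against 0.02. The 27 region genes with all 4 group means at 4 or more held 12 of the 14 higher calls in KK mice. They held 5 of the 6 in C57 mice. Without the filter on level, 39 of all 43 region genes had a positive difference in KK-M v KK-F and 14 were called higher, against 4.78% of all 6986 genes. In C57-M v C57-F, 30 of 43 were positive and 6 were called higher, against 2.76% of all genes. The interaction was positive for 24 of the 32 tested region genes, against 41.2% of all genes tested. It was called positive for 3 of the 32, against 3.81% of all genes. Leaving out 1 array gave 1 to 5 such calls. The median interaction was 0.23 over region genes and -0.08 over all genes, or 0.33 and 0.04 after quantile normalization.

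Mir377, Mir667 and Mir487b were higher in male pools of both strains. Mir377, in Mirg, read 6.61, 6.71 and 6.74 in KK-M against 6.07, 5.95 and 5.74 in KK-F. It read 6.96, 6.77 and 6.68 in C57-M against 6.06, 5.70 and 6.36 in C57-F. Males and females did not overlap in either strain, and the differences were nearly equal. They were 0.77 ± 0.15 (SE) in KK and 0.76 ± 0.15 (SE) in C57 mice (limma, adjusted p = 0.00154 and 0.0016), and the interaction was 0.00 ± 0.21 (SE). Mir667 differed by 0.60 ± 0.17 (SE) and 0.65 ± 0.17 (SE), and Mir487b by 0.60 ± 0.19 (SE) and 0.59 ± 0.19 (SE). For both genes the male arrays lay above the female arrays in either strain. Leaving out single arrays ended the calls of Mir667 (KK without KK-F replicate 1, C57 without C57-F replicate 3) and of Mir487b (KK without KK-M replicate 1 or 2 or KK-F replicate 2 or 3, C57 without C57-M replicate 3 or C57-F replicate 2 or 3), with differences of 0.43 to 0.81 over all such fits of the 2 genes. The Mir487b call in C57 mice was also lost when p was adjusted within that contrast alone.

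Mir337, Mir493, Mir382, Mir1188 and Mir341 passed the threshold in KK and not in C57 mice, and none of these 5 was called in the interaction. Mir337 read 6.65, 6.22 and 6.86 in KK-M and 5.51, 5.22 and 5.64 in KK-F. It read 5.86, 5.28 and 5.31 in C57-M and 5.03, 4.81 and 5.23 in C57-F. The KK-M arrays stood above all 9 others, and the C57-M arrays stood above the C57-F arrays by less. The differences were 1.11 ± 0.19 (SE) in KK-M v KK-F (limma, adjusted p = 0.000686) and 0.46 ± 0.19 (SE) in C57-M v C57-F (adjusted p = 0.0901), and the interaction of 0.66 had an adjusted p of 0.109. Mir493, beside it in the cluster, showed the same order, with 1.09 ± 0.21 (SE) in KK and 0.40 ± 0.21 (SE) in C57 mice. Mir382, Mir1188 and Mir341 had male minus female differences of 0.68, 0.67 and 0.60 in KK mice, which were called, and of 0.41, 0.43 and 0.38 in C57 mice, which fell short of the fold threshold.

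Mir665, Mir666 and Mir409 differed between the strains in their sex difference. Mir665 read 7.26, 7.10 and 7.21 in KK-M against 6.52, 6.30 and 6.16 in KK-F, and 6.91, 7.13 and 6.67 in C57-M against 6.79, 6.73 and 6.86 in C57-F. KK-F was the group apart, with all 3 arrays below the 9 others. The sex difference was 0.86 ± 0.12 (SE) in KK and 0.11 ± 0.12 (SE) in C57 mice, and the interaction was 0.75 ± 0.17 (SE) (limma, adjusted p = 0.00986). Mir409 had an interaction of 0.81 ± 0.22 (SE) (adjusted p = 0.0276) and Mir666 one of 1.02 ± 0.30 (SE) (adjusted p = 0.0326). A second, dimmer probeset of Mir409 had sex differences of 0.11 in KK and -0.24 in C57 mice, against 0.7 and -0.11 on the brighter one. Mir666 was the only region gene called lower in C57-M v C57-F, with a difference of -0.65 ± 0.21 (SE). The interaction call of Mir409 was lost without KK-F replicate 1 or 3, C57-M replicate 1 or 3 or C57-F replicate 3, with values of 0.59 to 0.97. That of Mir666 was lost without KK-M replicate 3, KK-F replicate 2 or 3, C57-M replicate 1 or 2 or C57-F replicate 3, with values of 0.78 to 1.19. The call of Mir666 in C57-M v C57-F was lost without C57-M replicate 1 or 2 or C57-F replicate 3, with values of -0.82 to -0.41, in a fit of the C57 arrays alone, and when p was adjusted within that contrast.

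The remaining sex calls of the region comprised Mir3070b (0.62), Mir654 (0.55) and Mir154 (0.51) in KK-M v KK-F, with Mir453 (1.07) described below. In C57-M v C57-F they comprised Mir323 (0.81), Mir380 (0.67) and Mir679 (0.62). Mir323 was called in each fit that left out 1 array, at 0.51 without C57-F replicate 2 and 1.06 without C57-F replicate 1. Mir329, Mir541 and Mir679, at 0.38, 0.55 and 0.39 in KK-M v KK-F, were called there after quantile normalization, and Mir541 also after median centring. Leaving out 1 array ended the call of Mir3070b (KK-M replicate 2, any KK-F array, C57-M replicate 2 or 3, or C57-F replicate 2, with differences of 0.36 to 0.78), Mir654 (KK-M replicate 3 or KK-F replicate 2, 0.40 to 0.66) and Mir154 (KK-M replicate 1 or 3 or KK-F replicate 1 or 2, 0.39 to 0.70). It also ended that of Mir380 (C57-M replicate 1 or 2 or C57-F replicate 2 or 3, 0.56 to 0.85). The call of Mir409 in KK-M v KK-F was lost without KK-M replicate 2, at 0.48. That of Mir3070b was also lost with the replicate number as a block (limma, adjusted p = 0.0521) and without the filter (0.0672). A second, dimmer probeset of Mir380 read 2.18 in C57-M against 2.25 in C57-F, and one of Mir409 read 2.77 in KK-M against 2.66 in KK-F, which does not show the differences of the brighter probesets.

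**Figure D2:**
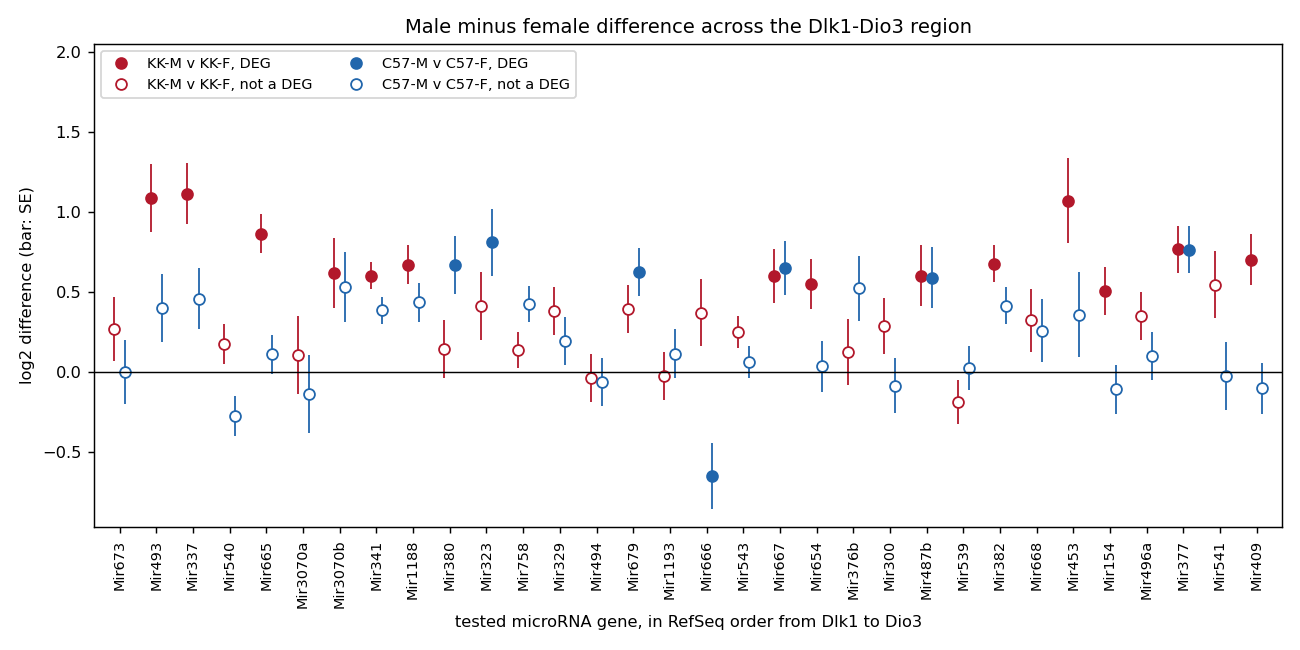
Male minus female log2 difference with its SE for the 32 tested microRNA genes of the Dlk1-Dio3 region, in RefSeq order, in KK mice (red) and C57 mice (blue), with filled points for DEGs. Filled red points lie above 0 without exception and reach 1.11 at Mir337, and the single filled point below 0 is Mir666 in C57 mice.

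KK pools carried more signal than C57 pools at a number of region genes. In KK-M v C57-M, 9 of the 32 tested genes were higher and 1 lower, with a median of 0.33, against -0.07 over all genes (0.44 and 0.01 after quantile normalization). In KK-F v C57-F, 6 were higher and 1 lower, with a median of 0.22 against 0.03. Over all genes tested, 7.05% were higher in KK-M v C57-M and 9.56% in KK-F v C57-F. All 4 group means reached 4 for 27 of the 32 region genes. These 27 held 5 of the 9 higher calls in males and 2 of the 6 in females. Both other scalings gave 3 lower genes in KK-F v C57-F, adding Mir665 and Mir540 to Mir453 (-0.47 and -0.44 as deposited). With them, 5 were higher after quantile normalization and 6 after median centring. The lower shares of all genes were 10.5% and 10.6% under these scalings, and the higher shares 8.24% and 7.88%. Without the filter, 33 of all 43 had a positive difference in males and 31 in females. Of these 43, 13 were called higher in males, against 4.85% of all 6986 genes, and 7 in females, against 6.11%.

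Mir154, Mir541, Mir376b and Mir1188 were higher in KK pools of both sexes. Mir541, in Mirg, read 4.80, 4.92 and 5.18 in KK-M against 3.67, 3.63 and 3.58 in C57-M. It read 5.07, 3.93 and 4.27 in KK-F against 3.56, 3.67 and 3.72 in C57-F. The C57 arrays of both sexes were low and close together, and all KK arrays lay above them. The differences were 1.34 ± 0.21 (SE) in males and 0.77 ± 0.21 (SE) in females (limma, adjusted p = 0.000391 and 0.0149), the female one being 0.45 and no longer called without KK-F replicate 1. Mir154 differed by 1.18 ± 0.15 (SE) and 0.56 ± 0.15 (SE), with the female call lost without C57-F replicate 3, at 0.48. Mir376b differed by 0.80 ± 0.20 (SE) and 1.2 ± 0.20 (SE).

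Mir1188 and Mir341, both in Rian, were called in KK-M v C57-M. Mir341 read 8.78, 8.72 and 8.82 in KK-M and 8.10, 8.18 and 8.24 in KK-F, against 8.20, 8.06 and 8.28 in C57-M and 7.84, 7.75 and 7.81 in C57-F. The KK-M arrays were the highest, the C57-F arrays the lowest, and those of KK-F and C57-M overlapped. The strain difference was 0.59 ± 0.08 (SE) in males (limma, adjusted p = 0.000169) and 0.37 ± 0.08 (SE) in females, below the fold threshold. Mir1188 differed by 0.80 ± 0.12 (SE) in males and 0.57 ± 0.12 (SE) in females, and the female call was lost without C57-F replicate 2, at 0.44. Mir337 (1.09), Mir409 (1.07), Mir493 (0.92) and Mir300 (0.82) were called in males, and Mir380 (0.99) and Mir679 (0.53) in females, that of Mir679 being lost without KK-F replicate 1 or C57-F replicate 1 and after quantile normalization. The dimmer second probeset of Mir409 differed by 0.11 in KK-M v C57-M, and that of Mir380 by 0.2 in KK-F v C57-F. These do not show the differences of the brighter probesets.

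Mir453 ran against its neighbours. It read 5.40, 6.15 and 5.84 in KK-M against 7.56, 7.26 and 7.80 in C57-M. It read 4.81, 4.04 and 5.33 in KK-F against 7.13, 7.22 and 7.19 in C57-F. All KK arrays lay below all C57 arrays, and the KK arrays were the more widely spread. The differences were -1.74 ± 0.27 (SE) in males and -2.46 ± 0.27 (SE) in females (limma, adjusted p = 0.000301 and 1.93e-05), and no alternative tried ended either call. These were the largest strain differences in either sex among tested microRNA genes. The neighbours Mir154 and Mir496a, also in Mirg, differed by 1.18 and 0.46 in males and 0.56 and 0.21 in females, of which those of Mir154 were called and those of Mir496a were not. After quantile normalization Mir496a passed in males, at 0.49. Within KK mice Mir453 was higher in males, by 1.07 ± 0.27 (SE), as most of the region was. The hairpin of Mir453 (chr12:109735619-109735700, plus strand, GRCm38.p6), in which the mature strand is in capitals, is shown because Mir453 was called lower in KK pools of both sexes.
Mir453 hairpin: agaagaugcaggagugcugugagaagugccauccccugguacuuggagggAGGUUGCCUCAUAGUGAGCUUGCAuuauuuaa

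**Figure D3:**
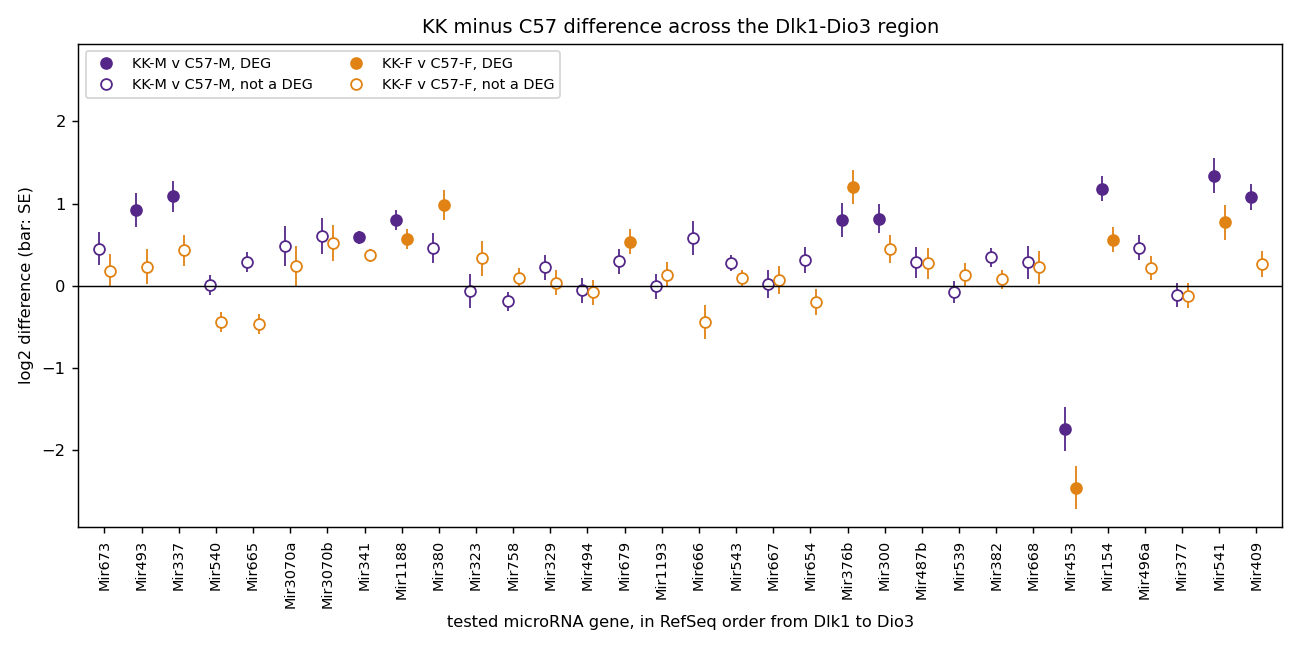
KK minus C57 log2 difference with its SE for the 32 tested microRNA genes of the Dlk1-Dio3 region, in RefSeq order, in males (purple) and females (orange), with filled points for DEGs. Mir453 lies at -1.74 and -2.46, and the other filled points lie above 0, up to 1.34 at Mir541.

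The long transcripts of the region were measured as well. Dlk1 averaged 10.50 in KK-M, 9.68 in KK-F, 9.45 in C57-M and 9.11 in C57-F, and was called higher in KK mice of both sexes (1.05 in males, 0.57 in females) and in KK-M v KK-F (0.81). Meg3, the first of the maternal non-coding RNAs, averaged 5.58 in KK-M, 4.85 in KK-F, 4.83 in C57-M and 4.77 in C57-F. It was called higher in KK-M v C57-M (0.76) and KK-M v KK-F (0.74), and its interaction was 0.68 (limma, adjusted p = 0.0289). Rian averaged 8.44 in KK-M, 8.06 in KK-F, 8.14 in C57-M and 7.59 in C57-F, and was called in C57-M v C57-F alone (0.55). In KK-M v C57-M, Rian differed by 0.29 and the microRNA genes within it, Mir341 and Mir1188, by 0.59 and 0.80. Begain, a neighbour of Dlk1, was higher in KK-M v C57-M (0.69), and Dio3 and Dio3os stayed under the level of 4. Rtl1 and Mirg were not analysed here as genes of their own, and 10 probesets that name Meg3, Rtl1 or Mirg together with a microRNA gene were not used. The promoter of Meg3 (chr12:109540746-109541045, plus strand, GRCm38.p6, from 250 bases before to 50 after the start) is shown because Meg3 is the first gene of the maternal transcripts and was higher in KK-M. It holds 1 match to TGACGTCA, the cyclic AMP response element, in capitals, which reads the same on both strands and occurs in 588 (1.79%) of 32851 mouse promoters of this length.
Meg3 promoter: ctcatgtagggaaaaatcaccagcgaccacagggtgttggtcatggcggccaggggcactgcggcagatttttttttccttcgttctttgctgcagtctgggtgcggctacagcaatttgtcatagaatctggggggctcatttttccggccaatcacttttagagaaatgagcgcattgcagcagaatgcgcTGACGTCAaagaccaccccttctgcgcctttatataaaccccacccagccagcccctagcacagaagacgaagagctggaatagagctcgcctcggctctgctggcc

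Markers of other cell types also differed between the pools, and bulk values cannot tell fewer cells of a type from less RNA per cell. Of 15 tested skeletal muscle markers, 11 were higher in KK-M v C57-M and the same number in KK-M v KK-F, with a log2 summed signal of 10.46 to 10.66 in KK-M, 8.20 to 8.23 in KK-F, 8.54 to 8.67 in C57-M and 8.40 to 8.64 in C57-F. In KK-F v C57-F, 1 muscle marker was higher and 3 were lower, and none was called in C57-M v C57-F. Of 12 listed muscle microRNA genes, only 4 were measured. These were Mir206, Mir133b, Mir208a and Mir208b, which stayed below 4 in all groups, and Mir206 read 2.04 in KK-M against 2.03 in C57-M. Of 8 tested markers of chromaffin cells, the catecholamine cells of the medulla, 6 were higher in KK-M v C57-M, 7 in KK-F v C57-F, 4 in KK-M v KK-F and 1 in C57-M v C57-F, and none was lower. Their log2 summed signal was 13.68 to 13.82 in KK-M, 13.45 to 13.54 in KK-F, 13.20 to 13.27 in C57-M and 12.89 to 12.94 in C57-F. Most hepatocyte markers moved the other way, with 12 of 17 lower and 1 higher in KK-M v C57-M and 13 of 17 lower in KK-F v C57-F. So did adipocyte markers, with 6 and 8 of 8 lower. Between the sexes, 3 hepatocyte markers were higher and none lower in KK-M v KK-F, and 1 was higher and 8 lower in C57-M v C57-F, with a median of -0.63. Of the adipocyte markers, 3 were higher and 1 lower in KK-M v KK-F and none was called in C57-M v C57-F. Macrophage markers were mixed, with 3 of 6 lower between strains in males and 3 of 6 higher and 1 lower in females. In KK-M v KK-F, 2 of 6 were higher and 1 lower, with a median of -0.16. In C57-M v C57-F, 5 of 6 were higher, with a median of 0.87. Markers of the steroid-producing adrenal cortex were bright, with a log2 summed signal of 12.78 to 12.83 in KK-M, 13.46 to 13.47 in KK-F, 12.94 to 13.00 in C57-M and 13.07 to 13.11 in C57-F. Of these 4 markers, 1 was higher and 1 lower in KK-M v C57-M and likewise in KK-F v C57-F. In the sex contrasts, 2 were higher and 1 lower in KK-M v KK-F and likewise in C57-M v C57-F. The lower one, Akr1c18, which inactivates progesterone, averaged 4.87 in KK-M, 12.27 in KK-F, 3.25 in C57-M and 8.29 in C57-F. Cyp11b2, the aldosterone synthase, averaged 10.10 in KK-M, 9.10 in KK-F, 10.22 in C57-M and 9.37 in C57-F, and was higher in males of both strains, whereas Cyp11b1 was not called in any contrast. The part of these tissues in the microRNA values was not tested. Of 18 listed microRNA genes of blood and immune cells, only 7 were measured, and these were all below 4. Mir194-1, the single one measured of 9 listed liver microRNA genes, was not called in any contrast.

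Outside the region, Mir218-2 had the largest sex difference. This gene lies within Slit3, a guidance ligand, and miR-218 is abundant in motor neurons. It read 4.90, 5.09 and 5.50 in KK-M and 5.79, 5.94 and 5.68 in KK-F. It read 4.16, 4.19 and 4.15 in C57-M and 5.59, 5.66 and 5.68 in C57-F. Males lay below females in both strains, and the C57-M arrays were the lowest of all 12. The sex difference was -0.64 ± 0.13 (SE) in KK and -1.48 ± 0.13 (SE) in C57 mice (limma, adjusted p = 0.00207 and 2.85e-06), and the interaction was 0.83 ± 0.18 (SE) (adjusted p = 0.00764). The strain difference was 0.99 ± 0.13 (SE) in males and 0.16 ± 0.13 (SE) in females. Slit3 itself averaged 8.49 in KK-M, 7.79 in KK-F, 7.78 in C57-M and 7.42 in C57-F. It was higher in males by 0.69 in KK and by 0.36 in C57 mice, the opposite sign to the microRNA gene within it. The hairpin of Mir218-2 (chr11:35616816-35616925, plus strand, GRCm38.p6) has both mature strands in capitals.
Mir218-2 hairpin: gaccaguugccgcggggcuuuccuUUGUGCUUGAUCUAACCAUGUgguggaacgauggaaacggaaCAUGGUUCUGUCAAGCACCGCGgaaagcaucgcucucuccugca

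The strain differences outside the region that were shared by both sexes concerned Mir1931, Mir5099 and Mir196a-1, which were higher in KK, and Mir1938 and Mir1898, which were lower. Mir1931 read 5.17, 5.09 and 4.59 in KK-M against 4.10, 4.46 and 3.31 in C57-M, and 5.76, 5.82 and 5.88 in KK-F against 4.26, 4.29 and 4.43 in C57-F. The KK arrays lay above the C57 arrays in both sexes, by 1.0 ± 0.23 (SE) and 1.49 ± 0.23 (SE), and within KK mice the male minus female difference was -0.87 ± 0.23 (SE). Mir5099, the brightest member, read 11.80, 11.88 and 11.98 in KK-M against 11.18, 11.12 and 11.36 in C57-M, and 12.03, 12.10 and 12.14 in KK-F against 11.44, 11.54 and 11.52 in C57-F. All KK arrays lay above all C57 arrays, by 0.67 ± 0.09 (SE) in males and 0.59 ± 0.09 (SE) in females (limma, adjusted p = 9.75e-05 and 0.000257), the female call being lost after quantile normalization. Mir196a-1, a microRNA gene of the Hoxb cluster, was higher by 0.57 in males and 0.54 in females. Each of its calls was lost without 1 of 2 arrays, in males KK-M replicate 2 or C57-M replicate 3 (0.46 at the least) and in females KK-F replicate 3 or C57-F replicate 2 (0.44 at the least).

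Mir1938 read 4.80, 5.36 and 5.26 in KK-M against 5.75, 5.84 and 6.05 in C57-M, and 4.65, 4.75 and 4.57 in KK-F against 5.72, 6.11 and 5.92 in C57-F. All KK arrays lay below all C57 arrays. The differences were -0.74 ± 0.15 (SE) in males and -1.26 ± 0.15 (SE) in females (limma, adjusted p = 0.00202 and 3.3e-05). Ifrd1, which contains it and encodes a transcriptional co-regulator, differed by -0.30 and 0.13 and was not called. Within KK mice Mir1938 was higher in males by 0.49, a call lost without KK-M replicate 2 or 3 or KK-F replicate 1 or 3. Mir1898 differed by -0.58 in males and -0.50 in females, with the female call lost without KK-F replicate 1 or 2 or C57-F replicate 1 or 2, at -0.37 at the smallest, and in a fit of the female arrays alone. Zfr, the RNA-binding protein gene around it, differed by -0.28 and 0.10.

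Some calls were made in 1 sex or 1 strain. Mir212, whose mature strand is induced through the cyclic AMP response factor CREB in neurons, read 5.72, 5.85 and 6.04 in KK-M, 5.62, 5.18 and 5.19 in KK-F, 5.09, 5.13 and 5.35 in C57-M and 5.12, 5.45 and 5.30 in C57-F. The KK-M arrays stood above all others. Mir212 was higher in KK-M v C57-M by 0.68 ± 0.14 (SE) and in KK-M v KK-F by 0.54 ± 0.14 (SE), and its interaction of 0.63 ± 0.19 (SE) had an adjusted p of 0.0403 (limma). The sex call was lost without KK-M replicate 3, KK-F replicate 2 or KK-F replicate 3, at 0.45 at the least, and the interaction call without replicate 2 or 3 of KK-M, KK-F or C57-F or replicate 1 or 2 of C57-M, with values of 0.55 to 0.78. The interaction call was also lost with the replicate number as a block (adjusted p = 0.0568) and without the filter (0.0659). Mir132, its neighbour with the same seed, stayed under the level, at 3.04 in KK-M, 3.03 in KK-F, 2.88 in C57-M and 2.90 in C57-F.

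In KK-M v C57-M, Mir30c-2 was higher by 0.79 ± 0.20 (SE) and Mir7-1, of a microRNA family of neuroendocrine cells, was lower, with a difference of -0.82 ± 0.21 (SE), against -0.01 for Hnrnpk, the RNA-binding protein gene that contains Mir7-1. In females Mir7-1 differed by -0.54 and passed after quantile normalization alone among the scalings (-0.62). In KK-F v C57-F, Mir30d was higher by 0.84 ± 0.14 (SE) and had an interaction of -0.71 ± 0.19 (SE), which was not called without KK-M replicate 2, KK-F replicate 3, C57-M replicate 2 or C57-F replicate 2. In the same contrast Mir3058 was higher by 0.53 ± 0.14 (SE) and Mir28c by 0.52 ± 0.17 (SE). The Mir3058 call was lost without C57-F replicate 3 and after median centring, and the Mir28c call without KK-F replicate 1 or 3 or C57-F replicate 1 or 2 (0.34 to 0.68), under either other scaling and without the filter. Nudt4, around Mir3058, encodes a diphosphoinositol phosphate hydrolase and differed by -0.24 in females and -0.67 in males. Mir28c was also higher in C57-M v C57-F by 0.54, where Samd12, which spans it, was higher by 0.76. That Mir28c call was lost without C57-M replicate 2 or 3 or C57-F replicate 2, and when p was adjusted within that contrast. Mir30b, next to Mir30d, was under the level, at 2.74 in KK-F against 2.79 in C57-F.

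Mir1929 and Atg5, the gene that contains it, were both lower in KK-M than KK-F. Mir1929 read 4.69, 4.49 and 3.80 in KK-M and 5.50, 4.86 and 5.04 in KK-F, with no overlap, and 5.01, 4.57 and 4.76 in C57-M and 4.54, 4.02 and 4.76 in C57-F. The sex difference was -0.81 ± 0.24 (SE) in KK-M v KK-F, and the interaction was -1.15 ± 0.34 (SE) (limma, adjusted p = 0.0376). Atg5, an autophagy gene, differed by -0.97 in KK-M v KK-F, with an interaction of -0.75. The Mir1929 call in KK-M v KK-F was lost without KK-M replicate 3 or KK-F replicate 1, and that in KK-F v C57-F (0.69) without KK-M replicate 2, KK-F replicate 1 or 3, any C57-M array or C57-F replicate 1 or 2 (0.49 to 0.85). The interaction was lost without KK-M replicate 3, KK-F replicate 1 or 3, C57-M replicate 1 or 3 or C57-F replicate 1 or 2 (-1.33 to -0.88). Quantile normalization also ended all 3 of these calls (adjusted p = 0.0527, 0.0799 and 0.0611), median centring the one in KK-F v C57-F (0.0639), and no filter that one (0.0636) and the interaction (0.0544). Mir1981, within Mtarc2, was called in the interaction alone (-0.61 ± 0.19 (SE), adjusted p = 0.0403), and this was lost without any 1 of 9 arrays, those other than KK-M replicate 1, C57-M replicate 1 and C57-F replicate 2 (-0.71 to -0.47). It was also lost after quantile normalization (-0.47, adjusted p = 0.126), after median centring (0.0608) and without the filter (0.0659).

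**Figure D4:**
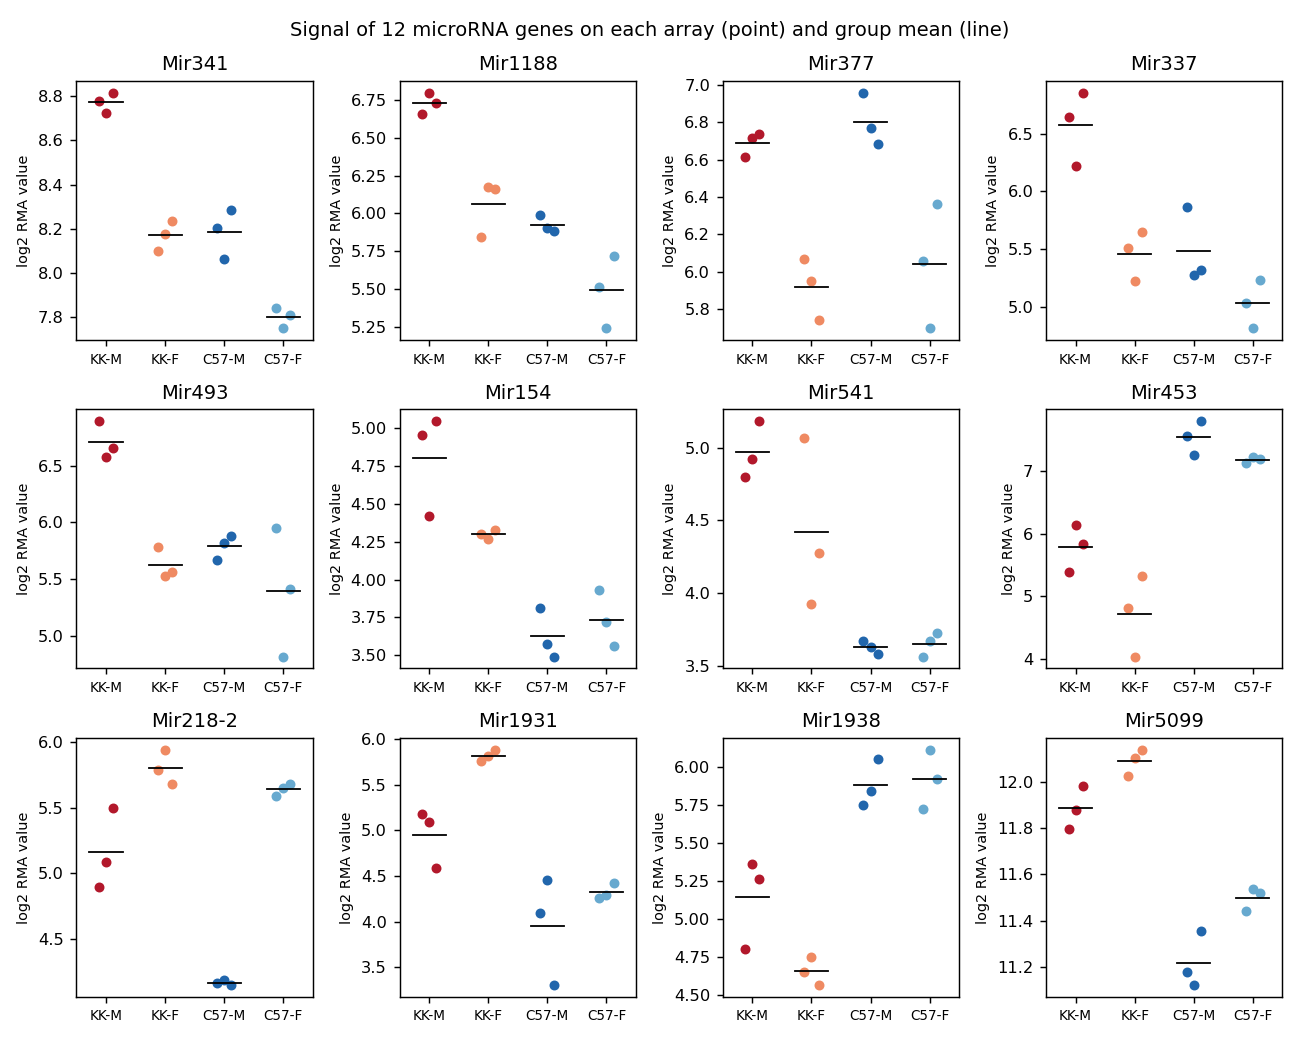
Log2 RMA value of 12 microRNA genes on each of the 12 arrays (points), with the mean of each group (line), with the 4 groups side by side. The value axes differ between panels. Mir453 and Mir1938 are low in both KK groups, and the C57-M points of Mir218-2 lie close together near 4.17.

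**Figure D5:**
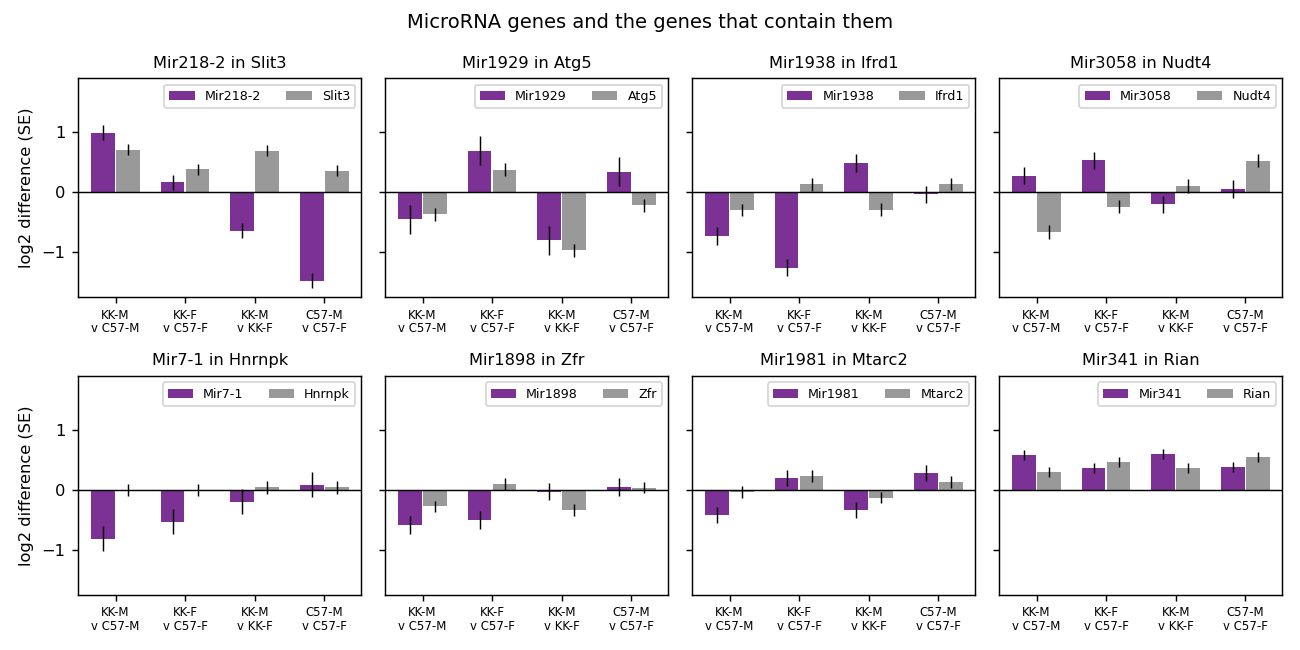
Log2 difference with its SE in the 4 pairwise contrasts for 8 microRNA genes (purple) and the gene that contains each of them (grey). Mir218-2 and Slit3 have opposite signs in both sex contrasts, and Mir1929 and Atg5 have the same sign in 3 of the 4 contrasts.

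Of 8 measured microRNA genes of neuroendocrine tissue, 4 were tested. In KK-M v C57-M 2 were higher (Mir212 and Mir218-2) and 1 was lower (Mir7-1), where 7.05% and 13.4% of all genes were. None of the 4 was called in KK-F v C57-F. In KK-M v KK-F Mir212 was higher and Mir218-2 lower, and in C57-M v C57-F Mir218-2 was lower. The interaction was called positive for Mir212 and Mir218-2. The fourth, Mir375, was not called in any contrast. Mir375, which limits insulin secretion in pancreatic islets, averaged 5.90 in KK-M, 6.19 in KK-F, 5.89 in C57-M and 6.10 in C57-F, with differences of 0.01 and 0.09 between strains. Of 4 measured microRNA genes tied to steroid synthesis, Mir212 and Mir23b were tested. Mir23b was not called, at 5.54 in KK-M and 5.49 in KK-F, against 5.37 in C57-M and 5.15 in C57-F. Mir449b differed by sex alike in both strains, by -0.40 and -0.41, which missed the fold threshold, though the C57 difference passed after quantile normalization (-0.51). Of the other brightest members, Mir329, Mir673, Mir5135 and Mir15a were not called in any contrast. In all, 36 of the 70 tested microRNA genes were called in no pairwise contrast (51.4%, against 61.4% of all genes tested).

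Of 21 measured genes of microRNA processing and silencing, 20 were tested and most were not called. Drosha, Dicer1, Ago2 (the slicer of the silencing complex) and Tarbp2 (the partner of Dicer) differed by no more than 0.44 in size in any pairwise contrast. In KK-M v C57-M, none was higher and 2 of 20 were lower, where 13.4% of all genes were, namely the helicase gene Ddx1 (-0.61) and Pnpt1 (-0.65), a mitochondrial exoribonuclease. In KK-F v C57-F, Pnpt1 was higher (1.04) and Ddx1 lower (-0.52). In KK-M v KK-F, none was higher and 3 were lower, where 11.6% of all genes were, namely Pnpt1 (-1.62), Tut7 (-0.68), which adds uridines to microRNA precursors, and Ddx5 (-0.50), a helicase of the Drosha complex. None was called in C57-M v C57-F. The interaction was negative for Pnpt1 (-1.70), Ddx5 (-0.74) and Tut7 (-0.72).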

How the data were processed

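Adrenal RNA was measured on 12 Mouse Gene 2.0 ST arrays, 3 for each of 4 pools. The deposited values are on the log2 scale, 1 for each probeset and array, and were made by the authors by robust multi-array averaging (RMA) in the Partek software; the genome build is not given in the sources used here. Array medians were 3.88 to 3.99. Arrays hold no read depth, and their number limits the precision. Of 16378 probesets, 7358 carried 1 symbol, 456 several and 8564 were unnamed here. Of the several-symbol probesets, 46 named a microRNA gene and were not used. Gene order came from RefSeq (GRCm38.p6).

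One mean per group was fitted with limma 3.58.1 in R 4.3.3 (residual df 8, prior df 4.84). Benjamini-Hochberg adjustment ran jointly over the 4 pairwise contrasts and all 4414 genes, and separately for the interaction and each mean difference. The fit was tested on simulated data. Named microRNA genes were those called in a pairwise contrast or the interaction, the 10 brightest, tissue lists, and neighbours within 10 kb and host genes of called genes. Members and lists were chosen with earlier results of these data known. Alternatives were other filters, scalings, variance fits, fold thresholds, a replicate block, means of probesets, a fit on pool means, and leaving out each array.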

Additional observations from a re-analysis of the deposited data

Results flagged for a closer look

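In 8 microRNA genes the strain difference in males differed from that in females by limma's interaction test over all genes tested (adjusted p with Benjamini-Hochberg, 3 arrays a group). The interaction was positive for Mir666 (1.02, adjusted p = 0.0326), Mir218-2 (0.83, 0.00764), Mir409 (0.81, 0.0276), Mir665 (0.75, 0.00986) and Mir212 (0.63, 0.0403). It was negative for Mir1929 (-1.15, 0.0376), Mir30d (-0.71, 0.0256) and Mir1981 (-0.61, 0.0403). Mir666, Mir1929, Mir665 and Mir1981 had strain differences of opposite sign in the 2 sexes, at 0.58, -0.45, 0.29 and -0.41 in males and at -0.44, 0.69, -0.47 and 0.20 in females. On the deposited values, only the difference of Mir1929 in females was called among these. That call was lost without any 1 of 8 arrays, under either other scaling and without the filter. Among these 8, the Mir218-2 and Mir665 interactions were the calls that no leaving out of 1 array ended.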

How the results depend on the processing

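No named call changed sign in any alternative that tested it. Of 71 calls of single microRNA genes, 40 passed in each alternative that tested them, except the fold threshold of 2, which kept 15. The group mean of 5 or more tested 50 of the 71 calls, and the mean of probesets tested 66. Leaving out 1 array ended 30 calls at least once. A fold threshold of 2 left 5 calls in KK-M v C57-M, 4 in KK-F v C57-F, 3 in KK-M v KK-F, 1 in C57-M v C57-F, 2 in the interaction, 4 in the mean strain difference and 1 in the mean sex difference, and one of 1.2 gave 16 in C57-M v C57-F. A group mean of 5 or more left 10 calls in KK-F v C57-F and 5 in C57-M v C57-F, and no filter left 5 in the interaction. A limma fit on the 4 pool means, with 1 residual degree of freedom, gave 6 calls for the mean strain difference and 0 for the mean sex difference, against 23 and 18 at an unadjusted p under 0.05. Leaving out each array gave 19 to 22 calls in KK-M v C57-M, 13 to 17 in KK-F v C57-F, 14 to 19 in KK-M v KK-F, 7 to 11 in C57-M v C57-F, 2 (without KK-F replicate 3) to 9 (without KK-M replicate 1) in the interaction, 17 to 20 in the mean strain difference and 12 to 16 in the mean sex difference. In the interaction, 4 calls were left without KK-M replicate 3, C57-M replicate 2 or C57-F replicate 3, and 5 without KK-F replicate 2. Arrays of the same replicate number did not deviate together (correlations of -0.10 to 0.12), so the numbers do not pair the arrays. With the replicate number as a block the counts were 20, 17, 19 and 10 in the pairwise contrasts in the order above, 8 in the interaction, 18 for strain and 15 for sex. Low signal and 1 pool a group limit all these values.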

Other observations

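Of the 105 microRNA genes below the level of 4, 7 (6.67%) would have been called in a pairwise contrast with no filter, against 113 (4.39%) of all 2572 genes below it. Of the 7, 4 genes, Mir379, Mir376a, Mir381 and Mir544, lay in the Dlk1-Dio3 region. All 4 were higher in KK-M v C57-M, with log2 differences of 0.64, 0.65, 0.83 and 0.64. Mir381 averaged 3.72 in KK-M and 3.60 in KK-F, against 2.89 in C57-M and 3.02 in C57-F. Outside the region, Mir151 and Mir763 were higher in KK-M v C57-M by 0.82 and 0.52, and Mir18, of the cluster on chromosome 14 that promotes cell proliferation, was lower in C57-M v C57-F by 0.53 on the log2 scale, at 2.70 in C57-M against 3.22 in C57-F. Values this low lie near the floor of the array, and these genes were chosen after their values were seen.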
